A study of Rattus norvegicus with 8 samples.

Results

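The genes described here encode the machinery that takes a new secretory protein into the endoplasmic reticulum (ER) and carries it to the Golgi apparatus and back. They were taken from the array by symbol: the signal recognition particle (Srp), the Sec61 translocon with its Ssr partners, signal peptidase (Sec11, Spcs), the COPII coat (Sar1, Sec13, Sec23, Sec24, Sec31), Sec22, the Tmed cargo receptors, the COPI coat (Copa to Copz), Arf1 to Arf6, the KDEL receptors and the Golga golgins. The rule found 59 probes of 55 genes among the 22523 probes and 21557 symbols of the array. The samples were enamel organs, the multicellular layer that forms enamel, dissected from the mandibular incisors of 4 male Wistar rats (Wistar Hannover by the study's methods) at 4 weeks of age, for which no treatment is named. Each rat gave a secretory-stage and a maturation-stage sample, so that 4 arrays of each stage were compared, and the question was how gene expression differs once enamel formation passes from matrix secretion to mineral maturation. By the study's methods the collected tissue was mostly enamel organ, so the samples are not a pure population of ameloblasts.

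Secretory proteins are recognised as they leave the ribosome by the signal recognition particle, pushed through the Sec61 channel into the ER, trimmed by signal peptidase and loaded into COPII vesicles that leave for the Golgi. COPI vesicles bring escaped ER residents and recycled receptors back, with KDEL receptors as the best known retrieval receptor, and golgins are long tethers that help vesicles dock. Secretory-stage ameloblasts are known for a large rough ER and for releasing amelogenin and the other enamel matrix proteins, whereas maturation-stage ameloblasts are known for removing that matrix and moving ions.

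With quantile normalization, many more of these genes were lower than higher in the maturation stage, an order that reversed with no normalization between arrays. Of the 59 member probes, 34 (57.6%, 32 genes) fell and 6 (10.2%, 6 genes) rose between the stages at an adjusted p below 0.05 by limma's moderated test, in which p-values were adjusted over all 22523 probes. The same test called 14% of all probes lower and 12.8% higher. Adding a fold of at least 1.8, the second threshold, left 9 member probes lower (15.3%), against 3.15% of all probes. In bulk samples such as these, fewer cells of a type and less RNA per cell cannot be told apart. No member probe was higher at both thresholds with limma, against 4.6% of all probes. None was higher there at an unadjusted p either, or by the unmoderated test that the study's methods name. Both of these counts were fixed in advance, since the largest rise, that of Sec24a, was 1.56-fold and so below the fold threshold. The ranges of the 4 secretory and the 4 maturation arrays did not overlap for 35 member probes that were lower and 7 that were higher in maturation, beside 14.6% and 13.1% of all probes.

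Most members were detected, so the shares among detected probes are given as well. A probe was called detected where its signal stood above the array's negative controls at a detection p below 0.05, and 51 member probes of 49 genes were detected on all 8 arrays. Of these 51 probes, 34 fell (66.7%), 5 rose (9.8%) and 9 were lower at both thresholds (17.6%). Among the 9156 probes of the array detected on all 8 arrays, 29.9% fell, 24.1% rose, 6.32% were lower at both thresholds and 8.73% were higher at both. The median log2 fold change, maturation minus secretory, was -0.38 over the 51 member probes and -0.07 over the 9156 probes. Copz2, Sec61g, Ssr1 and Tmed6 were detected on no array, as was the second of the 2 probes of Sar1a, and no change is given for them here.

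The size of this shift depended on how the arrays were put on a common scale. The median of the 9156 detected probes moved from -0.07 with quantile normalization to 0.20 when each array was only scaled to a common median, and to 0.40 with no normalization between arrays. The counts of member probes were then 22 lower and 10 higher with median scaling, and 11 lower and 17 higher with none, in place of 34 and 6. At both thresholds they were 5 lower and 1 higher with median scaling, and 4 lower and 4 higher with none. Over all probes, the share of calls at both thresholds that were higher in maturation was 59.3% with quantile normalization, 77.6% with median scaling and 87.2% with none. The median of the members minus that of the detected probes was -0.31 on the log2 scale with quantile normalization and -0.34 with median scaling, and 41 of the 51 lay below the median of the detected probes with each. These figures are the same with no normalization between arrays by construction, since median scaling only shifts each array. Of the 32 genes that fell, 11 were no longer lower at the adjusted p with median scaling, namely Srp19, Srp72, Sec61a2, Ssr3, Sec13, Sec22a, Copb1, Copz1, Arf4, Golga2 and Golga5. A further setting, no normalization between arrays, left 21 no longer lower, namely Srp19, Srp72, Sec61a2, Ssr3, Sec11a, Sec13, Sec23ip, Sec24d, Sec31a, Sec22a, Tmed10, Tmed2, Tmed3, Tmed9, Copb1, Cope, Copz1, Arf4, Golga1, Golga2 and Golga5. On the higher side, in place of the 5 genes detected on all arrays that rose, 9 passed the test with median scaling, namely Srp14, Sar1b, Sec23b, Sec24a, Sec24b, Tmed4, Arf3, Arf5 and Golga7, of which Sec24a passed both thresholds. Without normalization between arrays 14 did, namely Srp14, Sar1a, Sar1b, Sec23b, Sec24a, Sec24b, Tmed1, Tmed4, Copz1, Arf1, Arf2, Arf3, Arf5 and Golga7, of which Sar1b, Sec24a, Tmed4 and Golga7 passed both. Of the 9 genes lower at both thresholds, Ssr4, Ssr2, Sec61b and Kdelr3 were so in every setting that was run. Srp68, Sec11c, Sec23a and Sec22b fell short of the fold with median scaling, at log2 fold changes of -0.71, -0.74, -0.70 and -0.81, and these 4 and Sec61a1 did so with no normalization between arrays, at -0.51, -0.55, -0.50, -0.61 and -0.72.

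**Figure D1:**
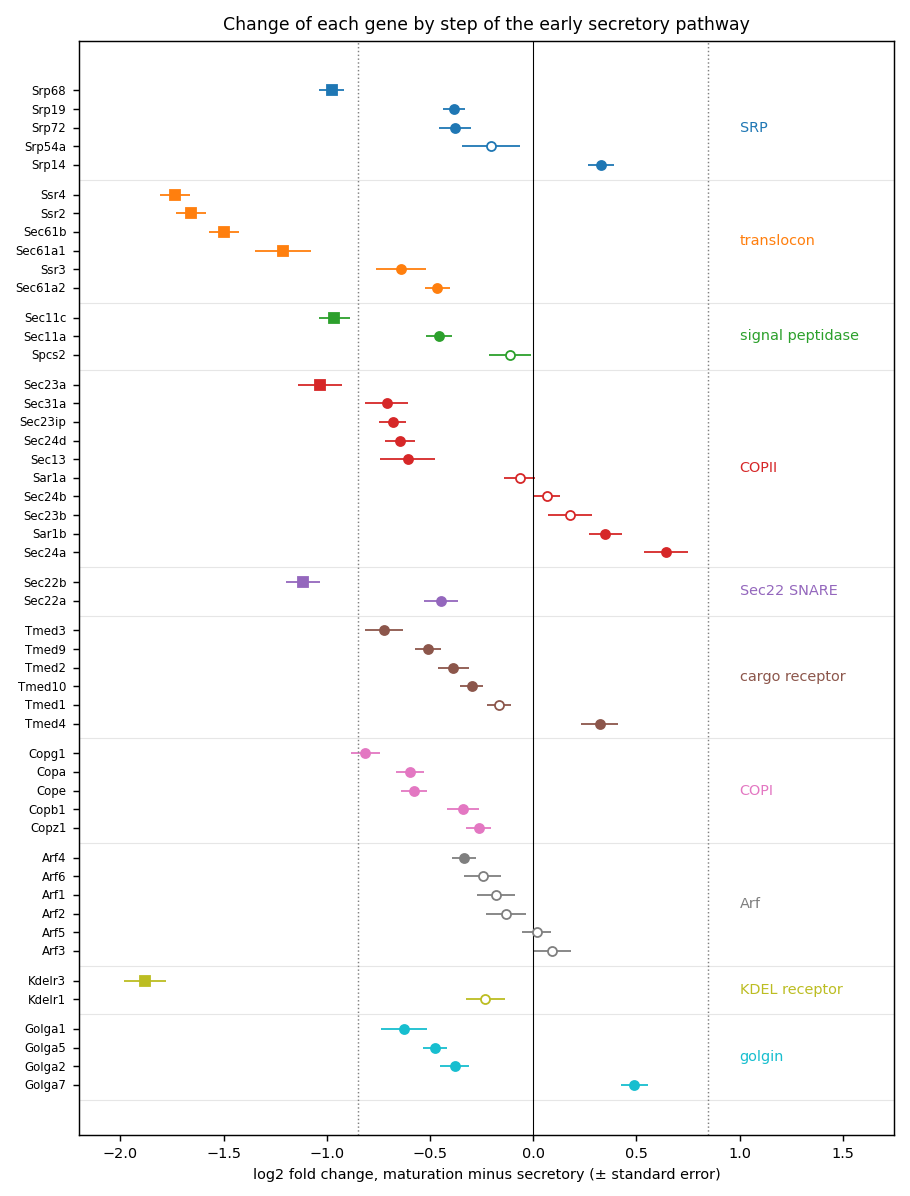
Change of the 49 genes detected on all 8 arrays (log2 fold change, maturation minus secretory, on the horizontal axis; bars are ± standard error, n = 4 arrays a stage), grouped by step. Squares passed both thresholds, filled circles the adjusted p alone and open circles neither, and dotted lines mark a fold of 1.8; the 9 squares all lie on the left, 4 of them in the translocon, and with no normalization between arrays every gene would sit further right.

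The arrays grouped by the stage in their titles, and other cells of the layer moved with them. The lowest correlation of an array with its own stage was 0.990 and the highest with the other stage 0.949. Of the 6 genes listed as secretory-ameloblast markers 5 were lower in maturation, namely Ambn, Enam, Mmp20, Dspp and Ctnna2. Amelx, the amelogenin gene, did not pass the test (log2 fold change -0.53, adjusted p = 0.0555). The summed signal of the 6 ran from 64903 to 70131 in the secretory stage and from 32539 to 57803 in maturation. Enam, which encodes the matrix protein enamelin, lay between 11.94 and 12.03 on the secretory arrays but at 9.08, 5.17, 5.53 and 8.22 on the maturation arrays of rats 1 to 4, so that rats 1 and 4 kept more of it. All 6 maturation-ameloblast markers measured were higher, with a summed signal of 851 to 913 in the secretory stage and 20990 to 28289 in maturation. Macrophage and leukocyte markers were higher for 9 of 10 genes, from a summed signal of 4461 to 5417 up to 14576 to 18012, with each of the 10 detected on at least 1 array, and osteoclast markers for 2 of 3, from 5473 to 7676 up to 16103 to 21986, with Calcr undetected. The part of these cells in the members' change was not tested. Leaving out both maturation arrays with the higher Enam, an alternative chosen after seeing the data, gave 32 member probes lower and 6 higher, and 12 lower at both thresholds.

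Sequence upstream of some of these genes is shown as a description, and its part in the members' change was not tested. RefSeq promoter windows of the GRCr8 build, 250 bases before to 50 after each gene start, were at hand for 48 of the 55 genes. They were searched on both strands for elements known from the unfolded protein response, in which the ER signals for more folding and transport capacity. The core TGACGTGG, the letters shared by binding sites of Xbp1 and related factors, was in 8 of 48 member windows (16.7%), in 0.595% of all 33469 windows, in 0.866% of those of genes detected on all 8 arrays and in 5.36% of those of 56 other pathway genes. The windows with it belonged to Kdelr3, Sec23a, Golga1, Copa, Copb1, Arf4, Srp19 and Arf1. All but Arf1 fell between the stages, as did 21 of the 35 detected member genes with a window that lacked the core, and the median log2 fold change was -0.49 over the 8 and -0.39 over the 35. With median scaling 4 of the 8 and 15 of the 35 were lower at the adjusted p, and with no normalization between arrays 3 and 7, where Srp19, Copb1, Arf4 and Arf1 turned positive. The full ER stress element, CCAAT and CCACG separated by 9 bases, was in no member window and in 0.0657% of all windows. It was found in that of Xbp1, the transcription factor itself, which also fell. The windows around the core in 3 genes that fell, and around the element in Xbp1, read as follows on the gene's own strand, with the motif in capitals (TGACGTGG, its reverse complement CCACGTCA, or the CCAAT to CCACG stretch).
Kdelr3 (chr7:112959491-112959578, plus strand): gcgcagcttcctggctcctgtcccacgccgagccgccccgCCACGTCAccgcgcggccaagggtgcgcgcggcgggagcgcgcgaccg
Sec23a (chr6:82440948-82441035, minus strand): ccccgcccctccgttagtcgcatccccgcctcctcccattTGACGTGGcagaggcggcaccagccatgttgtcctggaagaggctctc
Golga1 (chr3:43222425-43222512, minus strand): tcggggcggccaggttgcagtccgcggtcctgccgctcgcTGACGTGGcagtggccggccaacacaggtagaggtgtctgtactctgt
Xbp1 (chr14:84604518-84604616, plus strand): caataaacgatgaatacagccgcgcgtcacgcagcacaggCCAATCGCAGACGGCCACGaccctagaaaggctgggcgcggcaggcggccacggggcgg
The first base of the motif lay at -101 in Kdelr3, -91 in Sec23a, -153 in Golga1 and -65 in Xbp1, counted from the gene start. The core shares its first letters with the cAMP response element TGACGTCA, which was in 1 member window, that of Cope (2.08%), and in 1.83% of all windows. The CCAAT box alone was in 39.6% of member windows and 37.5% of all windows. A match in these letters is a description of the window and not a measurement of binding.

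At the first step, the signal recognition particle changed unevenly. Of its 5 genes, 3 fell, 1 rose and Srp54a did not pass the test, with a median log2 fold change of -0.38 that turned to 0.06 with no normalization between arrays. Srp68, a protein subunit that binds the particle's RNA together with Srp72, had normalized log2 signals of 11.29, 11.16, 11.22 and 11.11 on the secretory arrays of rats 1 to 4, the order kept below, and 10.21, 10.21, 10.27 and 10.17 on the maturation arrays. All 4 rats were lower in maturation with no overlap, a 1.97-fold fall (log2 fold change -0.98, SE 0.0591, adjusted p = 2.14e-06). Srp14, part of the domain that pauses the ribosome, went the other way, from 12.20, 12.18, 12.05 and 12.30 in the secretory stage to 12.48, 12.50, 12.50 and 12.56 in maturation. The stages again did not overlap, and Srp14 rose by 0.33 on the log2 scale (SE 0.0646, adjusted p = 0.00372), and by 0.52 with median scaling and 0.72 with no normalization between arrays. Srp19, needed to assemble the particle, and Srp72 fell by 0.38 each, with adjusted p-values of 0.000419 and 0.00529, and both lost the call with median scaling and turned positive with no normalization between arrays. Both probes of Srp72 fell, the second turning positive with median scaling as well. Srp54a, the subunit that binds the signal sequence, stood at -0.21 (SE 0.14, adjusted p = 0.372) and turned positive with both scalings, and the other subunits are not among the members.

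The translocon held 4 of the 9 genes that were lower at both thresholds. All 6 of its genes that were detected fell, of which Sec61a2 turned positive with no normalization between arrays, and the median log2 fold change of these 6 was -1.36, while that of all 8 genes on the array was -0.93. Ssr4, the delta subunit of the translocon-associated protein complex, had log2 signals of 12.83, 12.70, 12.59 and 12.62 in the secretory stage and 11.02, 10.93, 10.84 and 11.01 in maturation. Every maturation array lay well below every secretory array, a 3.33-fold fall (log2 fold change -1.74, SE 0.0716, adjusted p = 2.18e-07). Ssr2, the beta subunit of the same complex, went from 12.68, 12.48, 12.59 and 12.56 to 11.04, 10.84, 10.96 and 10.83. Its fall was 3.15-fold and close to that of Ssr4 (log2 fold change -1.66, SE 0.0713, adjusted p = 2.88e-07). Sec61b, the small beta subunit of the channel, measured 12.81, 12.73, 12.63 and 12.63 in the secretory stage and 11.28, 11.30, 11.10 and 11.12 in maturation. The stages did not overlap and the fall was 2.82-fold (log2 fold change -1.50, SE 0.0732, adjusted p = 5.85e-07).

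Sec61a1, which encodes the pore of the channel, had log2 signals of 7.74, 7.56, 7.15 and 7.28 in the secretory stage and 6.25, 6.18, 6.44 and 6.03 in maturation. The probe was dim and more variable than the others, with the secretory arrays of rats 1 and 2 highest, and the fall was 2.32-fold (log2 fold change -1.21, SE 0.136, adjusted p = 0.000111). Without background correction its log2 fold change was -0.68, short of the second threshold. Ssr3, the gamma subunit, fell by 0.64 on the log2 scale (SE 0.122, adjusted p = 0.00315), a call lost with median scaling (-0.39, adjusted p = 0.0545). Sec61a2, the second pore gene, was at 10.50 ± 0.0282 (SD, n = 4) in the secretory stage and 10.04 ± 0.0945 in maturation and fell by 0.46, a call lost with median scaling (-0.17, adjusted p = 0.12) that turned to 0.03 with no normalization between arrays. The Sec61g probe, detected on no array, and both Srp72 probes carry gene identifiers that the current rat gene table assigns to pseudogenes, so the symbols of the array were kept.

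Signal peptidase, which cuts the signal sequence from the incoming protein, fell in both catalytic subunits. Sec11c had log2 signals of 12.66, 12.53, 12.40 and 12.38 in the secretory stage and 11.62, 11.56, 11.45 and 11.50 in maturation. No maturation array reached the lowest secretory array, and the fall was 1.95-fold (log2 fold change -0.96, SE 0.0762, adjusted p = 1.19e-05). Sec11a, the alternative catalytic subunit, went from 11.43, 11.57, 11.42 and 11.49 to 10.90, 11.04, 11.08 and 11.06. It fell by 0.46 on the log2 scale (SE 0.0634, adjusted p = 0.000447), a change that shrank to -0.01 with no normalization between arrays. Spcs2, a noncatalytic subunit, stood at -0.11 (SE 0.103, adjusted p = 0.535).

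**Figure D2:**
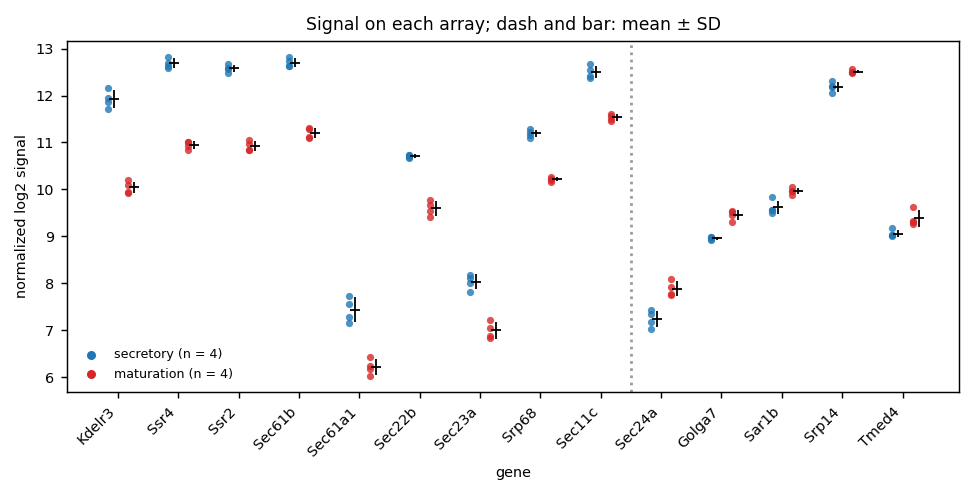
Normalized log2 signal (vertical axis) on each array for the 9 genes lower at both thresholds, left of the dotted line, and for 5 of the genes that rose, right of it. Points are arrays, dashes and bars the mean ± SD of the 4 arrays of a stage (secretory in blue, maturation in red); in all 14 genes the 2 stages do not overlap, and levels of different genes are not comparable because probes differ in brightness.

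In the COPII coat the members of each family parted. Of 10 genes 5 fell, 2 rose and 3 did not pass the test, with a median log2 fold change of -0.34 that turned to 0.16 with no normalization between arrays. Sec23a, which forms the inner coat and activates the Sar1 GTPase cycle, had log2 signals of 8.01, 7.82, 8.18 and 8.12 in the secretory stage and 6.89, 6.83, 7.23 and 7.06 in maturation. The stages did not overlap and the fall was 2.05-fold (log2 fold change -1.03, SE 0.107, adjusted p = 6.91e-05), while the log2 fold change was -0.69 without background correction. Its paralog Sec23b measured 9.06, 8.86, 9.11 and 9.01 and 8.96, 9.39, 9.35 and 9.05, ranges that overlapped. The log2 fold change of Sec23b was 0.18 (SE 0.107, adjusted p = 0.303), and it reached 0.53 (adjusted p = 0.00166) with median scaling.

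Sec24 proteins choose the cargo of a COPII vesicle. Sec24a had log2 signals of 7.03, 7.18, 7.42 and 7.34 in the secretory stage and 7.76, 7.92, 7.77 and 8.10 in maturation. It rose 1.56-fold with no overlap, the largest rise among the members (log2 fold change 0.64, SE 0.107, adjusted p = 0.00136), and stood at 0.97 with median scaling and 1.17 with no normalization between arrays. Its probe was dim, and the log2 fold change was 0.43 without background correction and 0.54 with an offset of 50. Sec24d moved in the opposite direction, from 9.95, 10.17, 10.19 and 10.15 to 9.36, 9.50, 9.51 and 9.51. The array of rat 1 was the lowest in both stages, and Sec24d fell 1.56-fold (log2 fold change -0.64, SE 0.0724, adjusted p = 0.000114), a call lost with no normalization between arrays (-0.13, adjusted p = 0.306). Sec24b stood at 0.07 (SE 0.0659, adjusted p = 0.584), and at 0.36 (adjusted p = 0.00468) with median scaling.

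Of the outer coat, Sec31a fell by 0.71 on the log2 scale (SE 0.104, adjusted p = 0.000626) and Sec13, its partner, fell by 0.61 (SE 0.132, adjusted p = 0.00668). Sec23ip, which links the coat to ER exit sites, fell by 0.68 (SE 0.0668, adjusted p = 4.74e-05). These 3 genes lost the call with no normalization between arrays, at -0.17, -0.06 and -0.16, as Sec13 did with median scaling (-0.26, adjusted p = 0.174). The Sar1 GTPases start coat assembly. Sar1b had log2 signals of 9.57, 9.56, 9.50 and 9.83 in the secretory stage and 9.88, 9.96, 9.97 and 10.05 in maturation. The secretory array of rat 4 came close to the maturation arrays without reaching them, and Sar1b rose by 0.35 (SE 0.0808, adjusted p = 0.00923), and by 0.67 with median scaling and 0.87 with no normalization between arrays. With rats 1 and 4 left out of the maturation stage its adjusted p was 0.0503. Sar1a, by its detected probe, stood at -0.07 (SE 0.0764, adjusted p = 0.646), and passed the test on the higher side with no normalization between arrays (0.37, adjusted p = 0.00186).

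Sec22b is a SNARE that fuses vesicles moving between the ER and the Golgi. Both Sec22 members fell, Sec22a turning positive with no normalization between arrays. Sec22b had log2 signals of 10.74, 10.67, 10.70 and 10.74 in the secretory stage and 9.77, 9.54, 9.41 and 9.67 in maturation. The secretory arrays lay close together, the maturation arrays were all lower, and the fall was 2.17-fold (log2 fold change -1.12, SE 0.0802, adjusted p = 6.38e-06). Sec22a fell by 0.45 on the log2 scale (SE 0.0814, adjusted p = 0.00237) but was at -0.29 without background correction, lost the call with median scaling (-0.11, adjusted p = 0.223) and stood at 0.09 with no normalization between arrays.

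The Tmed cargo receptors, which collect cargo in COPII and COPI vesicles, had no gene at the second threshold with quantile normalization of all 8 arrays. Among 8 genes 4 fell, 1 rose and 3 did not pass the test, and the median log2 fold change of the 6 detected on all arrays was -0.34, while that of all 8 was -0.23 and turned to 0.06 with no normalization between arrays. Tmed3 had log2 signals of 10.68, 10.49, 10.46 and 10.46 in the secretory stage and 9.99, 9.72, 9.62 and 9.87 in maturation. Rat 1 was highest in both stages, and the fall was 1.65-fold (log2 fold change -0.72, SE 0.0917, adjusted p = 0.000251). With maturation arrays 1 and 4 left out Tmed3 passed the second threshold (-0.86, adjusted p = 0.000413). Its second probe was detected on 1 array. Tmed9 fell by 0.51 (SE 0.0628, adjusted p = 0.000212), Tmed2 by 0.39 (SE 0.0735, adjusted p = 0.00306) and Tmed10 by 0.30 (SE 0.0545, adjusted p = 0.00239), and with no normalization between arrays all 4 lost the call, with Tmed3 at -0.22, Tmed9 at -0.12, Tmed2 at -0.19 and Tmed10 at 0.01. Tmed4 measured 9.17, 9.02, 9.01 and 9.04 in the secretory stage and 9.26, 9.63, 9.32 and 9.31 in maturation. The stages did not overlap and Tmed4 rose by 0.32 (SE 0.0889, adjusted p = 0.0226), and by 0.68 with median scaling and 0.88 with no normalization between arrays, but its adjusted p was between 0.0546 and 0.0606 when secretory array 2, 3 or 4 was left out and 0.0566 by the unmoderated test of the methods. Tmed1 stood at -0.17 (SE 0.0597, adjusted p = 0.0737), and passed the test on the lower side without background correction, with an offset of 50 and by the unmoderated test of the methods (adjusted p = 0.048), and on the higher side with no normalization between arrays (0.35, adjusted p = 0.0115). Tmed5 was detected on 2 secretory and 4 maturation arrays, with means of 5.13 ± 0.38 and 5.28 ± 0.139 (SD, n = 4).

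The COPI coat fell in every subunit that was detected, 5 of 5, of which Copb1 and Copz1 turned positive with no normalization between arrays and Copz1 also with median scaling. The median log2 fold change of these 5 was -0.58, and that of all 6 genes on the array was -0.46. Over the 6 it was -0.21 with median scaling and -0.01 with no normalization between arrays. Copg1, the gamma subunit that helps bind cargo tails, had log2 signals of 11.01, 10.77, 10.87 and 10.91 in the secretory stage and 10.20, 10.05, 10.001 and 10.06 in maturation. No overlap was seen, and the fall was 1.76-fold, just short of the second threshold (log2 fold change -0.81, SE 0.0703, adjusted p = 2.08e-05), which it passed without maturation array 1 (-0.86) or secretory array 2 (-0.85). Copa, the alpha subunit of the outer layer, went from 12.73, 12.88, 12.88 and 12.76 to 12.21, 12.12, 12.36 and 12.19. Its fall was 1.51-fold (log2 fold change -0.60, SE 0.0696, adjusted p = 0.000146). Cope, the epsilon subunit, fell by 0.58 (SE 0.0633, adjusted p = 9.89e-05), Copb1, the beta subunit, by 0.34 (SE 0.0784, adjusted p = 0.00924) and Copz1, the zeta subunit, by 0.26 (SE 0.0625, adjusted p = 0.0103). None of the 5 passed the second threshold. Copz1 lost the call without negative controls and with cyclic loess (adjusted p = 0.0516 and 0.0695) and with maturation arrays 1 and 4 left out (adjusted p = 0.0534), Copb1 with median scaling (-0.05, adjusted p = 0.683) and Cope with no normalization between arrays (-0.05, adjusted p = 0.726), where Copz1 passed the test on the higher side (0.30, adjusted p = 0.0153). The 2 probes of Copb1 fell together.

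The Arf GTPases, of which several recruit COPI and other Golgi coats, had 1 of 6 genes called with quantile normalization. Arf4 fell by 0.33 on the log2 scale (SE 0.0585, adjusted p = 0.00185), a call lost with median scaling (-0.17, adjusted p = 0.0805) that turned to 0.02 with no normalization between arrays. Its log2 signals were 12.79, 12.85, 12.93 and 12.89 in the secretory stage and 12.52, 12.45, 12.53 and 12.60 in maturation. The other 5 did not pass the test, from -0.25 (SE 0.0902, adjusted p = 0.0785) for Arf6, which acts at the plasma membrane, to 0.09 (SE 0.0919, adjusted p = 0.59) for Arf3. Arf1, the main Golgi Arf, stood at -0.18 (SE 0.0911, adjusted p = 0.208). With no normalization between arrays 4 of the 6 passed the test on the higher side, Arf1 (0.29, adjusted p = 0.0236), Arf2 (0.42, adjusted p = 0.00504), Arf3 (0.60, adjusted p = 0.00173) and Arf5 (0.41, adjusted p = 0.000816). On the lower side Arf1 passed it without secretory array 2 (-0.25, adjusted p = 0.0462) and Arf6 without secretory array 4 (-0.30, adjusted p = 0.0426), whereas Arf3 and Arf5 stood at 0.40 (adjusted p = 0.00861) and 0.21 (adjusted p = 0.0216) with median scaling. The median over the step was -0.15, and it turned to 0.15 with median scaling and 0.35 with no normalization between arrays.

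The KDEL receptors, which return ER chaperones from the Golgi, included the member with the lowest log2 fold change. Kdelr3 had log2 signals of 11.87, 11.71, 11.95 and 12.16 in the secretory stage and 10.19, 9.95, 9.93 and 10.09 in maturation. The secretory mean was 11.92 ± 0.186 and the maturation mean 10.04 ± 0.125 (SD, n = 4), a 3.68-fold fall with no overlap (log2 fold change -1.88, SE 0.102, adjusted p = 1.03e-06). Kdelr1, a paralog in the same retrieval step, measured 12.63, 12.24, 12.52 and 12.69 and 12.34, 12.34, 12.21 and 12.25. These ranges overlapped, and its log2 fold change was -0.23 (SE 0.0957, adjusted p = 0.117). In the settings run, Kdelr1 passed the test only when secretory array 2 was left out (-0.32, adjusted p = 0.0086), and it turned to 0.14 with no normalization between arrays.

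Of the 5 genes with a Golga symbol, 3 fell and 2 passed the test on the higher side. Their median log2 fold change was -0.38 and turned to 0.09 with no normalization between arrays. Golga1, Golga5 and Golga2 fell by 0.63 (adjusted p = 0.00219), 0.48 (adjusted p = 0.000233) and 0.38 (adjusted p = 0.00214), and Golga5 and Golga2 lost the call with median scaling and turned positive with no normalization between arrays, where Golga1 lost it too (-0.30, adjusted p = 0.136). The probe of Golga1 was dim, with means of 5.72 and 5.09, and its log2 fold change was -0.21 without background correction and -0.35 with an offset of 50. Golga2 encodes GM130, a tether of the cis-Golgi. Golga7 had log2 signals of 8.99, 8.93, 8.95 and 8.99 in the secretory stage and 9.31, 9.54, 9.51 and 9.46 in maturation. The stages were well apart and Golga7 rose 1.4-fold (log2 fold change 0.49, SE 0.0638, adjusted p = 0.000298), with 0.84 with median scaling and 1.04 with no normalization between arrays. Golga7 is known as a partner of a palmitoyltransferase and not as a coiled-coil tether. Golga3 passed the test on the higher side (adjusted p = 0.015) but was detected on no secretory and 2 maturation arrays, with means of 4.56 and 4.91 near background, so no fold is given.

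**Figure D3:**
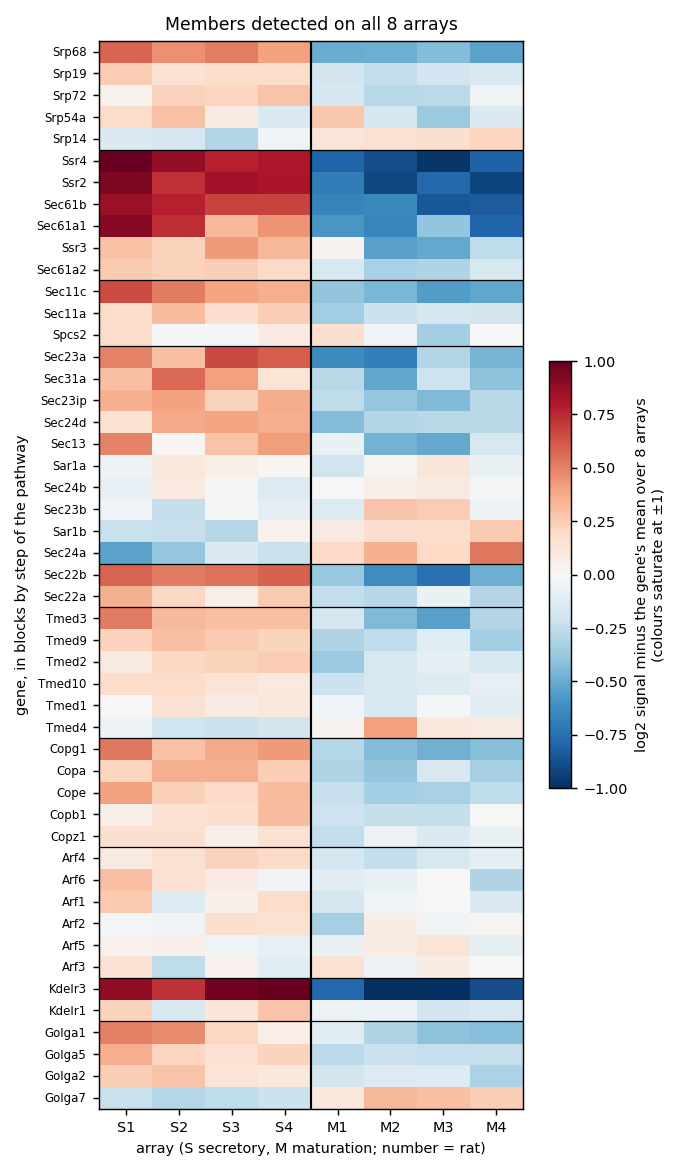
Signal of the 49 member genes detected on all 8 arrays, as the log2 signal minus the gene's own mean (colour, red above and blue below, saturating at ±1), with arrays in columns and genes in blocks by step. Ssr4, Ssr2, Sec61b, Sec61a1 and Kdelr3 have deep colours on both sides and the Arf block pale ones, under quantile normalization; Sec24a, Sar1b, Srp14, Tmed4 and Golga7 run in the opposite direction to their neighbours.

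Whether paralogs of one step changed by different amounts was tested with the log2 ratio of both genes within each array, a measure that scaling of the whole array leaves as it is. Since probes differ in brightness, only the change of such a ratio can be read, not its level. In 9 of 13 pairs the ratios of the 2 stages did not overlap, and each of these had an exact two-sided permutation p of 0.0286, the smallest that 4 against 4 arrays can give, or 0.0413 after adjustment over the 13 pairs. Ratios of unrelated probes can part as well, since 29.9% of the probes detected on all 8 arrays fell and 24.1% rose. How often they do was not counted, so the count of pairs is not a trait of paralogs. The pairs are also not independent, as Sec24a and Arf1 each enter more than 1. The log2 ratio of Kdelr1 over Kdelr3 was 0.53 to 0.75 in the secretory stage and 2.15 to 2.39 in the maturation stage. It changed by 1.65 (SE 0.0786), a 3.13-fold shift from Kdelr3 toward Kdelr1, with rats at 1.39 to 1.86. For Sec24a over Sec24d the ratio was -2.99 to -2.76 in the secretory stage and -1.75 to -1.42 in the maturation stage. The shift toward Sec24a was 2.44-fold, 1.29 on the log2 scale (SE 0.0853). Sec23a over Sec23b ran from -1.05 to -0.88 in the secretory stage and -2.55 to -1.99 in the maturation stage. Here the balance moved 2.31-fold toward Sec23b (log2 change -1.21, SE 0.132).

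The other 6 pairs that parted did so by less. The log2 ratio changed by -0.75 for Sec61a1 over Sec61a2 (SE 0.173), where rats ran from -1.09 to -0.17 and the ranges overlapped without background correction. It changed by 0.67 for Sec22a over Sec22b (SE 0.134), by 0.58 for Sec24a over Sec24b (SE 0.143) and by 0.51 for Sec11a over Sec11c (SE 0.105). In the GTPases it changed by -0.41 for Sar1a over Sar1b (SE 0.107) and by -0.35 for Arf4 over Arf5 (SE 0.0966). Within each of the 9 pairs all 4 rats moved the same way, although a sign-flip test over 4 rats cannot go below an exact p of 0.125. The ratios of Arf1 over Arf3 (-0.27, exact p = 0.0571), Tmed3 over Tmed9 (-0.21, exact p = 0.257), Tmed2 over Tmed10 (-0.09, exact p = 0.229) and Arf1 over Arf6 (0.07, exact p = 0.571) overlapped between the stages, with adjusted p-values of 0.0743, 0.279, 0.27 and 0.571. In the first 3 of these the differences within rats also had 1 sign in all 4 rats, so that 12 of the 13 pairs did. The ratio of Arf1 over Arf3 did not overlap with median scaling or no normalization between arrays (-0.32 with each), without negative controls (-0.26), without background correction (-0.22) or with an offset of 50 (-0.25).

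**Figure D4:**
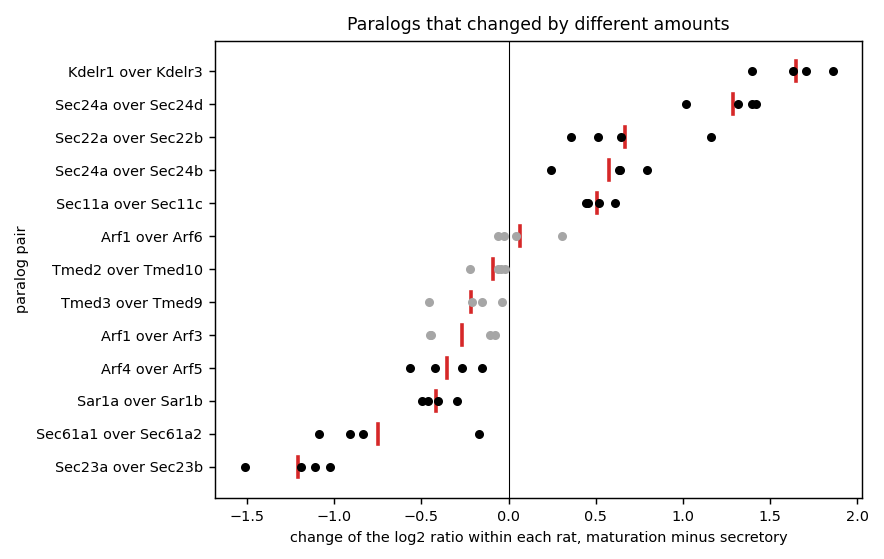
Change of the log2 ratio of 2 paralogs within each rat (horizontal axis, maturation minus secretory) for the 13 pairs. Each point is a rat and the red bar their mean; pairs in black did not overlap between the stages over arrays, and those in grey did, with Kdelr1 over Kdelr3 at 1.65 and Sec23a over Sec23b at -1.21 at the ends.

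Other genes of ER to Golgi transport that the symbols above do not take were counted for comparison. Of 67 such genes 36 fell and 7 rose, beside 29.9% and 24.1% of the probes detected on all arrays. At both thresholds 8 of the 67 were lower and 2 higher, beside 6.32% and 8.73% of those probes. With median scaling 23 of the 67 genes fell and 17 rose, and with no normalization between arrays 12 fell and 23 rose. Their median log2 fold change over the 62 detected on all arrays was -0.33, and -0.05 and 0.15 with these settings. Like the translocon, its partners in the ER membrane fell: all 9 genes of the oligosaccharyltransferase and its neighbours passed the test, of which Tusc3 and Rpn1 lost the call with median scaling and turned positive with no normalization between arrays. Rpn1 also lost it when 1 of 5 arrays was left out, at adjusted p-values of 0.0654 to 0.0759, with cyclic loess (-0.19, adjusted p = 0.11), without negative controls (adjusted p = 0.0744) and with maturation arrays 1 and 4 left out (adjusted p = 0.0781), where Tusc3 lost it too (adjusted p = 0.057). Ddost, a subunit of the oligosaccharyltransferase that adds N-glycans, went from 11.79, 11.65, 11.60 and 11.58 to 10.56, 10.71, 10.63 and 10.48. It fell 2.09-fold (log2 fold change -1.06, SE 0.0725, adjusted p = 4.59e-06). Ostc, which joins that enzyme to the translocon, fell 1.83-fold (log2 fold change -0.87, SE 0.0617, adjusted p = 5.72e-06). Srpra, the receptor that docks the signal recognition particle, stood at -0.03 (SE 0.0998, adjusted p = 0.904), and at 0.21 with median scaling.

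Of 15 COPII assembly factors and export cargo receptors 6 fell, of which Tfg and Ergic2 turned positive with no normalization between arrays, 2 rose and 7 did not pass the test. Among the probes detected on all arrays 29.9% fell and 24.1% rose, near enough that the count is no result about these 15 genes. Ergic3, a receptor that cycles between the ER and the Golgi, had log2 signals of 10.94, 10.83, 10.81 and 10.68 in the secretory stage and 9.07, 8.86, 8.81 and 9.12 in maturation. It fell 3.6-fold, about as far as Kdelr3 (log2 fold change -1.85, SE 0.089, adjusted p = 5.29e-07). Bcap29, an ER membrane protein linked to export, rose from 9.24, 9.31, 9.26 and 9.26 to 10.24, 10.37, 10.03 and 10.38. That was a 1.98-fold rise with no overlap (log2 fold change 0.99, SE 0.0824, adjusted p = 1.66e-05). Golgb1, the giant golgin giantin that tethers COPI vesicles, fell 2.46-fold (log2 fold change -1.30, SE 0.0638, adjusted p = 6.02e-07), and Arfip2, which binds Arf GTPases, fell 1.86-fold (log2 fold change -0.89, SE 0.0978, adjusted p = 9.65e-05). Bnip1, an ER SNARE for returning vesicles, rose 1.86-fold (log2 fold change 0.90, SE 0.127, adjusted p = 0.000506). The second threshold was lost with median scaling for Ddost (-0.81), Ostc (-0.75) and Arfip2 (-0.54), and with no normalization between arrays for Golgb1 (-0.77) as well. It was lost with cyclic loess for Ostc (-0.82) and Arfip2 (-0.81), and for Arfip2 and Bnip1 with an offset of 50 (-0.83 and 0.77) and without background correction (-0.75 and 0.62). Bnip1 lost it without negative controls too (0.83). With 1 array left out it was lost for Arfip2 without secretory array 2 (-0.81), for Ostc without secretory array 4 (-0.83) and for Bnip1 without secretory array 2 (0.81) or maturation array 3 (0.84). With no normalization between arrays Arfip2 stood at -0.34 (adjusted p = 0.0833).

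Transcription factors known to act on secretory pathway genes were counted as well, with 3 of 8 lower, 2 higher and 3 not passing the test, beside 29.9% and 24.1% of the probes detected on all arrays, shares near enough that the count is no result about these factors. Xbp1, which drives ER expansion in secretory cells, had log2 signals of 12.41, 12.34, 12.46 and 12.56 in the secretory stage and 11.35, 11.24, 11.24 and 11.38 in maturation. The stages did not overlap and Xbp1 fell 2.2-fold (log2 fold change -1.14, SE 0.0662, adjusted p = 1.58e-06), with -0.73 and no longer the second threshold with no normalization between arrays. Creb3l2, an ER-anchored factor known to act on Sec23a in cartilage, measured 6.69, 6.72, 6.62 and 6.30 and 5.53, 4.96, 4.996 and 5.13. It was detected on 3 of the 4 maturation arrays and fell 2.69-fold (log2 fold change -1.43, SE 0.139, adjusted p = 4.42e-05), but stood at -0.57 without background correction and -0.90 with an offset of 50. Creb3l4, likewise detected on 3 maturation arrays, fell 2.1-fold (log2 fold change -1.07, SE 0.176, adjusted p = 0.00126). It was short of the second threshold without background correction (-0.42), with an offset of 50 (-0.66), without negative controls (-0.84) and with no normalization between arrays (-0.68). Creb3l1 of the same family rose by 0.63 on the log2 scale (SE 0.162, adjusted p = 0.0154) and Atf4 by 0.43 (SE 0.0847, adjusted p = 0.00365), Creb3l1 not passing the unmoderated test of the methods (adjusted p = 0.0651). Creb3l1 stood at 0.98 with median scaling and 1.18 with no normalization between arrays, and Atf4 at 0.71 with median scaling and 0.91 with no normalization between arrays. Creb3l1 and Atf4 were chosen after their values were seen.

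**Figure D5:**
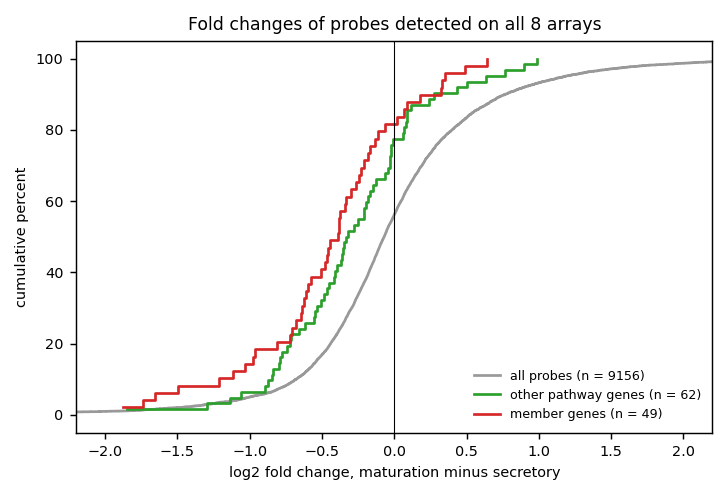
Cumulative percent (vertical axis) of log2 fold changes (horizontal axis, maturation minus secretory) for all 9156 probes detected on all 8 arrays in grey, the 62 other pathway genes in green and the 49 member genes in red. Both coloured curves lie to the left of the grey curve over most of their course, with medians of -0.33 (green), -0.39 (red) and -0.07 (grey) under quantile normalization; with no normalization between arrays these are 0.15, 0.03 and 0.40.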

How the data were processed

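The deposited table held, for each of 8 Illumina RatRef-12 BeadChip samples, a bead-summary intensity per probe, a detection p-value and the number of beads (19 to 75 for member probes). The intensities were not normalized, and the software and settings the authors used to summarise beads were not given in the sources used here. Stages came from the sample titles. The source label of maturation replicates 2 to 4 names the secretory stage, against their titles, descriptions and tissue labels.

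Intensities were corrected by neqc (limma 3.58.1, R 4.3.3) which estimated the background from the deposited detection p-values since the table used here names no control probes, with an offset of 16, quantile normalization and log2. Stages were compared unpaired with lmFit and eBayes, with Benjamini-Hochberg adjustment over all 22523 probes. Thresholds were an adjusted p of 0.05 and a fold of 1.8. A gene was read from its brightest probe. Symbols were updated through the RefSeq gene table (GRCr8), which matched 17430 probes. On simulated arrays, 94% of probes changed by a log2 size of 1 were called, and 100% at 2. Named were, in each step, genes at both thresholds, the highest and lowest, members of the paralog pairs, and other pathway genes at both thresholds. Further genes are named, after their values were seen, to account for each step or count. The count over COPI partners is not reported here. Members and lists were chosen with earlier results of these data known. Deviations from the stage means correlated between both samples of a rat (r = 0.195, 0.129, 0.219 and 0.234 for rats 1 to 4, over 11233 probes), and both came from the same animal by the study's methods, so replicate numbers pair the samples. Ratios of paralogs were tested by exact permutation of the arrays (scipy 1.17.1). Another 17 settings were run, and 1 was added after seeing the data. Signal sums were 11881691 to 12046793 in secretory and 13355073 to 16122665 in maturation arrays, and 4 arrays a stage limit the precision.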

Additional observations from a re-analysis of the deposited data

Results flagged for a closer look

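Single arrays stood apart from the other 3 of their stage in 3 of 68 sets of 4 log2 signals tested with Dixon's ratio, where about 3.4 are expected by chance. Sec24d was low on the array of rat 1 in both stages, at 9.95 in the secretory stage against 10.15 to 10.19 on the others, and at 9.36 in maturation against 9.50 to 9.51. Tmed3 was high in the secretory stage of rat 1, at 10.68 against 10.46 to 10.49.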

How the results depend on the processing

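Most turned directions came with other scalings between arrays. With median scaling, member probes numbered 22 lower and 10 higher at the adjusted p and 5 lower and 1 higher at both thresholds, and other pathway genes 23 and 17, and 5 and 4. They numbered with no normalization between arrays 11 and 17, and 4 and 4, for members, and 12 and 23, and 2 and 6, for other pathway genes. Without background correction 5 other pathway genes were lower at both thresholds, and 1 was higher there, as also without negative controls, with an offset of 50 and without maturation replicate 3 or secretory replicate 2; over all left-out arrays it was 1 to 2. The replicate block left the members at 34 lower and 6 higher at the adjusted p and 9 lower and 0 higher at both thresholds and moved the other pathway genes that were higher at the adjusted p from 7 to 8; the other counts of called genes stayed as they were.

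Medians in this paragraph are over all genes of a step on the array, with -0.93 for the translocon, -0.46 for COPI and -0.23 for the Tmed cargo receptors as reported. With median scaling, the median log2 fold change was -0.13 for the signal recognition particle, -0.65 for the translocon, -0.21 for signal peptidase, -0.0415 for COPII, -0.46 for the Sec22 SNAREs, -0.14 for the Tmed cargo receptors, -0.21 for COPI, 0.15 for the Arf GTPases, -0.85 for the KDEL receptors and -0.11 for the golgins. With no normalization between arrays, the median log2 fold change was 0.065 for the signal recognition particle, -0.45 for the translocon, -0.0147 for signal peptidase, 0.16 for COPII, -0.26 for the Sec22 SNAREs, 0.0563 for the Tmed cargo receptors, -0.0123 for COPI, 0.35 for the Arf GTPases, -0.65 for the KDEL receptors and 0.0914 for the golgins. Without background correction, the median log2 fold change was -0.64 for the translocon, -0.28 for COPII, -0.66 for the Sec22 SNAREs, -0.42 for COPI and -0.21 for the golgins. With an offset of 50, the median log2 fold change was -0.78 for the translocon and -0.73 for the Sec22 SNAREs. With cyclic loess, the median log2 fold change was -0.26 for COPII, -0.71 for the Sec22 SNAREs, -0.18 for the Tmed cargo receptors and -0.38 for COPI. With dim probes left out, hence over fewer genes, the median log2 fold change was -1.36 for the translocon, -0.30 for the Tmed cargo receptors and -0.58 for COPI. With all probes of each gene, the median log2 fold change was -0.0656 for COPII, -0.17 for the Tmed cargo receptors and -0.37 for COPI. With maturation replicates 1 and 4 left out together, an alternative chosen after seeing the data, the median log2 fold change was -0.29 for COPII and -0.50 for COPI. Leaving out 1 array at a time moved the COPI median between -0.49 and -0.43.

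With median scaling, the sign turned, to 0.0267 for Srp54a, 0.17 for Spcs2, 0.18 for Sar1a, 0.15 for Tmed1, 0.0962 for Copz1, 0.0862 for Arf1, 0.22 for Arf2, 0.00396 for Arf6 and 0.21 for Srpra. With no normalization between arrays, the sign turned, to 0.0645 for Srp19, 0.23 for Srp54a, 0.065 for Srp72, 0.0279 for Sec61a2, 0.37 for Spcs2, 0.37 for Sar1a, 0.0852 for Sec22a, 0.35 for Tmed1, 0.0116 for Tmed10, 0.15 for Copb1, 0.30 for Copz1, 0.29 for Arf1, 0.42 for Arf2, 0.0242 for Arf4, 0.20 for Arf6, 0.14 for Kdelr1, 0.0914 for Golga2, 0.0800 for Golga5, 0.0967 for Arfgef1, 0.15 for Ergic2, 0.15 for Gosr2, 0.12 for Rab2a, 0.16 for Rpn1, 0.41 for Srpra, 0.10 for Tfg, 0.19 for Trappc12, 0.12 for Tusc3 and 0.00365 for Uso1. Without background correction, the sign turned, to -0.0663 for the paralog ratio Arf1 over Arf6. With an offset of 50, the sign turned, to -0.0126 for the paralog ratio Arf1 over Arf6. With cyclic loess, the sign turned, to 0.0363 for Srpra. With maturation replicates 1 and 4 left out together, the sign turned, to 0.0323 for Sar1a and -0.0662 for Rab1a. Leaving out 1 array at a time, Arf5 lay between -0.0217 and 0.0543. Leaving out 1 array at a time, Srpra lay between -0.13 and 0.0163. Leaving out 1 array at a time, the paralog ratio Arf1 over Arf6 lay between -0.0149 and 0.15. Over 1939 recomputed values, 1751 kept direction and side of the threshold or their size. Signal close to background limits Sec61a1, Sec23a, Sec24a, Sec22a, Golga1, Creb3l2 and Creb3l4, and 4 arrays a stage limit all. The cause of the dependence on scaling was not tested.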

Other observations

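Of 26 tethers and SNAREs of ER to Golgi transport 12 fell and 2 rose, Bnip1 and Golph3. Among the probes detected on all arrays 29.9% fell and 24.1% rose. Of the 12 genes that fell, Uso1, Gosr2, Rab2a and Trappc12 turned positive with no normalization between arrays. Scfd1, which controls SNARE pairing, fell by 0.79 on the log2 scale (adjusted p = 4.27e-05), and its partner SNARE Stx5 fell by 0.62 (adjusted p = 3.53e-05). Stx5 lost the call with no normalization between arrays (-0.06, adjusted p = 0.597). Both have the core TGACGTGG, on one strand or the other, in their promoter windows, as does Golgb1. Golph3, a Golgi phosphoinositide-binding protein, rose by 0.50 (adjusted p = 0.000788) and stood at 0.85 with median scaling and 1.05 with no normalization between arrays. Rab1a, a GTPase of the same step, stood at 0.09 (SE 0.103, adjusted p = 0.634), and passed the test with no normalization between arrays (0.53, adjusted p = 0.0143).

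Arcn1, the delta subunit of the coat, fell by 0.50 (SE 0.0555, adjusted p = 0.0001) and Arfgap1, which ends the Arf cycle on COPI vesicles, fell by 0.80 (SE 0.0557, adjusted p = 5.18e-06), calls lost with no normalization between arrays (-0.05, adjusted p = 0.682 and -0.27, adjusted p = 0.051). Both exchange factors of the Golgi measured here moved apart, Arfgef1 losing the call with median scaling and turning positive with no normalization between arrays: it fell by 0.35 (SE 0.0595, adjusted p = 0.00153), while Arfgef2 rose by 0.76 (SE 0.103, adjusted p = 0.000378) and stood at 1.10 with median scaling and 1.30 with no normalization between arrays. Apart from Bnip1, these genes were chosen after their values were seen. Of the marker lists of other cells, odontoblast and osteoblast markers were higher in maturation for 3 of 7 genes, fibroblast and dental mesenchyme markers for 3 of 6 with 1 lower, and endothelial markers for 1 of 4. Among the probes detected on all arrays 24.1% were higher and 29.9% lower. The 1 lower marker, Postn (-0.32), turned to 0.05 with no normalization between arrays. Dspp was counted with the secretory-ameloblast markers and not here. No erythroid marker of 3 and no skeletal muscle marker of 6 passed limma's adjusted test or the unmoderated test of the methods, and at an unadjusted p limma gave 1 lower erythroid and 1 higher muscle marker.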
